A study of Homo sapiens with 12 samples.

Results

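The genes described here are 39 genes of mitosis and of the G2/M transition, listed by name with earlier results of these data known and found by symbol among the 25370 genes of an RNA-seq count table. All 39 were in the table, and all 39 were tested. T47D, an established estrogen receptor-positive human breast cancer cell line, was kept in medium with charcoal-stripped serum and then without serum, which removes most hormone from the culture. The cells then received vehicle, anastrozole at 10 nM, E2 (17β-estradiol) at 0.1 nM, or both agents at the same doses, and each of the 4 groups has replicates a, b and c. The sample labels give 12 hours of treatment, and the study's methods give a longer time. Anastrozole is a nonsteroidal aromatase inhibitor. The study holds that it can also act as an estrogen receptor ligand, and asked whether the genes it regulates are like those of E2 or differ from them. All groups are of a single line, and the labels do not say whether the replicates were separate cultures, so p-values measure the spread between these libraries.

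Entry into mitosis is driven by CDK1 bound to cyclin A or B, and kinases of the Aurora and Polo families, the kinetochore, motor proteins and the spindle checkpoint then carry chromosome segregation, until the anaphase-promoting complex destroys the cyclins and securin. The genes for these proteins are transcribed as a group late in the cell cycle, from promoters that often carry a cell cycle genes homology region (CHR) and CCAAT boxes, where the MuvB complex acts with MYBL2 (B-Myb) and FOXM1, and where the related DREAM complex represses them in resting cells. In estrogen receptor-positive breast cancer cells deprived of hormone, estradiol is known for driving cells out of G1, and mRNAs of mitotic genes, scarce in resting cells, then rise as the culture moves on to G2 and mitosis.

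Libraries held from 9914253 to 17009776 reads assigned to genes, and 3 counts corresponded to 0.177 to 0.303 CPM (counts scaled to library size, with TMM normalization). The luminal markers ESR1, GATA3, FOXA1, KRT8, KRT18, KRT19 and EPCAM had group means in vehicle from 157 CPM for EPCAM to 3013 CPM for KRT19. Of 7 markers of basal, stromal, immune or endothelial cells, KRT5, KRT14, PTPRC, CD3E and PECAM1 stayed under 0.5 CPM in every group mean, VIM stood at 1.63 CPM in vehicle and COL1A1 at 94.0 CPM. The libraries also differed in how their counts followed the GC content of genes: the Spearman correlation of a library's log2 deviation with GC content across genes ran from -0.61 in anastrozole replicate a to 0.46 in vehicle replicate a. It was positive in anastrozole plus E2 and in vehicle, though only weakly in vehicle replicate b (0.059), and negative in E2. In the anastrozole group it was negative in replicates a and b (-0.61 and -0.37) and positive in replicate c (0.26). Results are therefore given below with each library's GC trend removed as well, wherever this ends the call of a named gene.

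The 39 genes were well covered, with counts from 97 to 17334 in single libraries. Their levels in vehicle ran from 11.8 CPM for CENPA to 891 CPM for TOP2A, with a median of 85.9 CPM. Per kilobase of exon, the scale on which genes can be compared, they ran from 5.83 CPM per kilobase for CENPE to 139.7 for TOP2A, with a median of 19.2 against 2.68 over 19595 genes with a known length. These mRNAs were thus readily detected in the vehicle group.

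Summed over the 39 genes, the share of all reads on genes was 0.528%, 0.545% and 0.531% in vehicle replicates a, b and c, 0.573%, 0.566% and 0.548% with anastrozole, 0.591%, 0.586% and 0.596% with E2, and 0.568%, 0.582% and 0.584% with anastrozole plus E2. By this share, every treated library lay above every vehicle library, anastrozole replicate c by the narrowest margin. The 3 E2 libraries were the highest of the 12, with E2 replicate b only slightly above anastrozole plus E2 replicate c. Summed with TMM normalization, anastrozole replicate c (5417 CPM) lay below vehicle replicate b (5450 CPM). The mean log2 deviation of the 39 genes, which weighs them alike, gave the same order for this pair. By that mean, anastrozole plus E2 replicate c (0.060) lay above E2 replicates a (0.039) and b (0.050). Group means of the share were 0.535% ± 0.0093 (SD, n = 3) in vehicle, 0.562% ± 0.013 with anastrozole, 0.591% ± 0.0051 with E2 and 0.578% ± 0.0089 with anastrozole plus E2. TOP2A and CENPF, the genes with the most reads, weigh most in these sums. In bulk RNA, a larger share of cells in G2 or mitosis and more RNA of these genes per cell cannot be told apart.

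**Figure D1:**
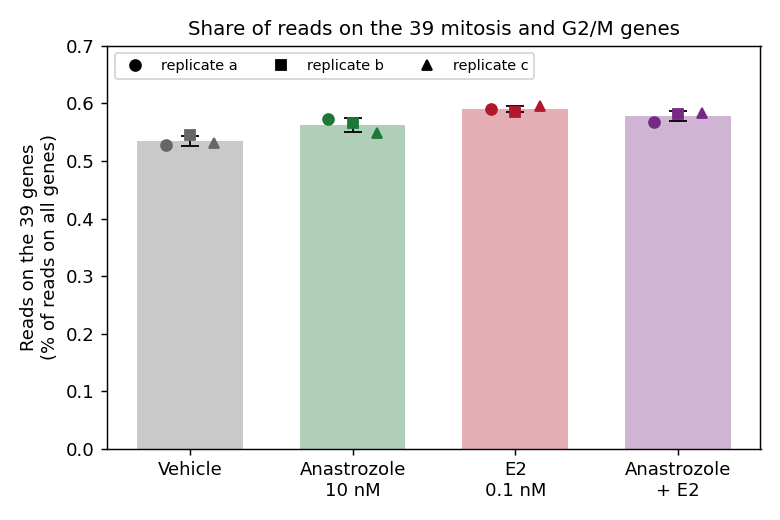
Reads on the 39 mitosis and G2/M genes as a percentage of the reads on all genes (y axis), by treatment group (x axis). Bars are group means, error bars are SD (n = 3), and points are libraries, with marker shape for the replicate letter. The vehicle libraries sit between 0.528% and 0.545% and the E2 libraries between 0.586% and 0.596%.

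Against vehicle, 19 of the 39 genes were called higher with E2, 13 with anastrozole plus E2 and 4 with anastrozole, and no gene changed by more than the 0.30 of HMMR on the log2 scale. The counts for E2 and for anastrozole plus E2 changed places, to 10 and 16, once a trend on GC content was removed from the libraries. With E2, 19 of the 39 genes rose and 1 fell (edgeR's quasi-likelihood test, Benjamini-Hochberg adjusted p under 0.05 over 21132 genes), where 6.06% of all genes tested rose and 5.95% fell. The median log2 fold change of the 39 was 0.13, a median increase of 9.64%, against 0 over all genes, and 34 of the 39 lay above 0. In 21 of the 39 genes every E2 library lay above every vehicle library, as it did in 13.0% of all genes. Shares of all genes, here and below, include genes with few reads. Of the 11037 genes of a mean level of at least 3 log2 CPM, 1155 rose and 1214 fell with E2. In 2110 of these, every E2 library lay above every vehicle library. The risers among the 39 were CCNA2, CDK1, BUB1, BUB1B, MAD2L1, CENPE, CENPF, NUF2, KIF11, KIF2C, TPX2, NUSAP1, ANLN, DLGAP5, HMMR, ASPM, PTTG1, TOP2A and MKI67, and the gene that fell was CCNF.

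Cell type markers moved as well. Of the 7 luminal markers 4 fell with E2, namely ESR1 (-0.14 ± 0.037, adjusted p = 0.00381), FOXA1 (-0.14 ± 0.033, adjusted p = 0.000332), KRT8 (-0.097 ± 0.026, adjusted p = 0.00337) and KRT19 (-0.16 ± 0.025, adjusted p = 2.9e-08), of which ESR1 and FOXA1 were still called with the GC trend removed, and none was called with anastrozole plus E2 or anastrozole before that step. Their summed level was 7797 to 8228 CPM in vehicle, 7305 to 7555 with E2, 7739 to 7838 with anastrozole plus E2 and 7272 to 7947 with anastrozole. Of the 7 markers of other cell types only VIM was called against vehicle. It was higher with E2 (0.70 ± 0.25, adjusted p = 0.0432) and anastrozole plus E2 (0.74 ± 0.24, adjusted p = 0.0449). The E2 call was lost with the GC trend removed (0.72, adjusted p = 0.051). VIM stood at 1.63 ± 0.540 CPM in vehicle and 2.73 ± 0.731 with E2 (SD, n = 3). Without COL1A1 the other 6 of these markers summed to 1.46 to 2.59 CPM in vehicle, 2.42 to 3.71 with E2, 2.50 to 3.64 with anastrozole plus E2 and 2.38 to 3.40 with anastrozole. The part of these shifts in the result was not tested.

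With anastrozole plus E2, 13 of the 39 genes rose and none fell, against 2.71% of all genes that rose. CCNB2, CDK1, AURKA, AURKB, NUF2, KIF20A, KIF2C, TPX2, NUSAP1, DLGAP5, HMMR, PTTG1 and TOP2A made up the 13. The median log2 fold change over the 39 genes was 0.10, 37 of the 39 lay above 0, and 20 of the 39 had an unadjusted p under 0.05. Of the 11037 genes of a mean level of at least 3 log2 CPM, 452 rose and 1332 had all 3 libraries above all 3 vehicle libraries. That separation held in 23 of the 39 genes, against 9.66% of all genes. Without vehicle replicate c, 9 genes rose, and without anastrozole plus E2 replicate a, 15 did. DESeq2's test called 8 and limma-voom 5.

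With anastrozole alone, 4 genes rose, namely HMMR, NUSAP1, TPX2 and TOP2A, and 1 fell, MYBL2, against 1.40% of all genes that rose and 2.27% that fell. The median log2 fold change was 0.049, and 26 of the 39 lay above 0. Of the 11037 genes of a mean level of at least 3 log2 CPM, 252 rose and 467 fell. The 3 anastrozole libraries lay above all vehicle libraries in 1300 of these. That separation held in 7 of the 39 genes, against 8.63% of all genes. The count of calls depended on single libraries. None of the 4 rises was called without anastrozole replicate a, anastrozole replicate b, vehicle replicate a or vehicle replicate c, while without anastrozole replicate c, the library whose GC trend was opposite to the other two of its group, 7 genes rose and 2 fell. limma-voom called 0 of the 39 genes, with 11 at an unadjusted p under 0.05.

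The sizes of these changes were narrowly bounded. The upper end of the 95% interval stayed under 1.5-fold for all 39 genes in each of the 3 comparisons with vehicle, and under 1.25-fold for 36 genes with E2, 36 with anastrozole plus E2 and 39 with anastrozole. The highest upper end with E2 was 0.42 on the log2 scale, a 1.34-fold increase, for CENPA, which also had the fewest reads of the genes. These 3 comparisons share their vehicle libraries, and their values are therefore set side by side and not counted as independent.

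**Figure D2:**
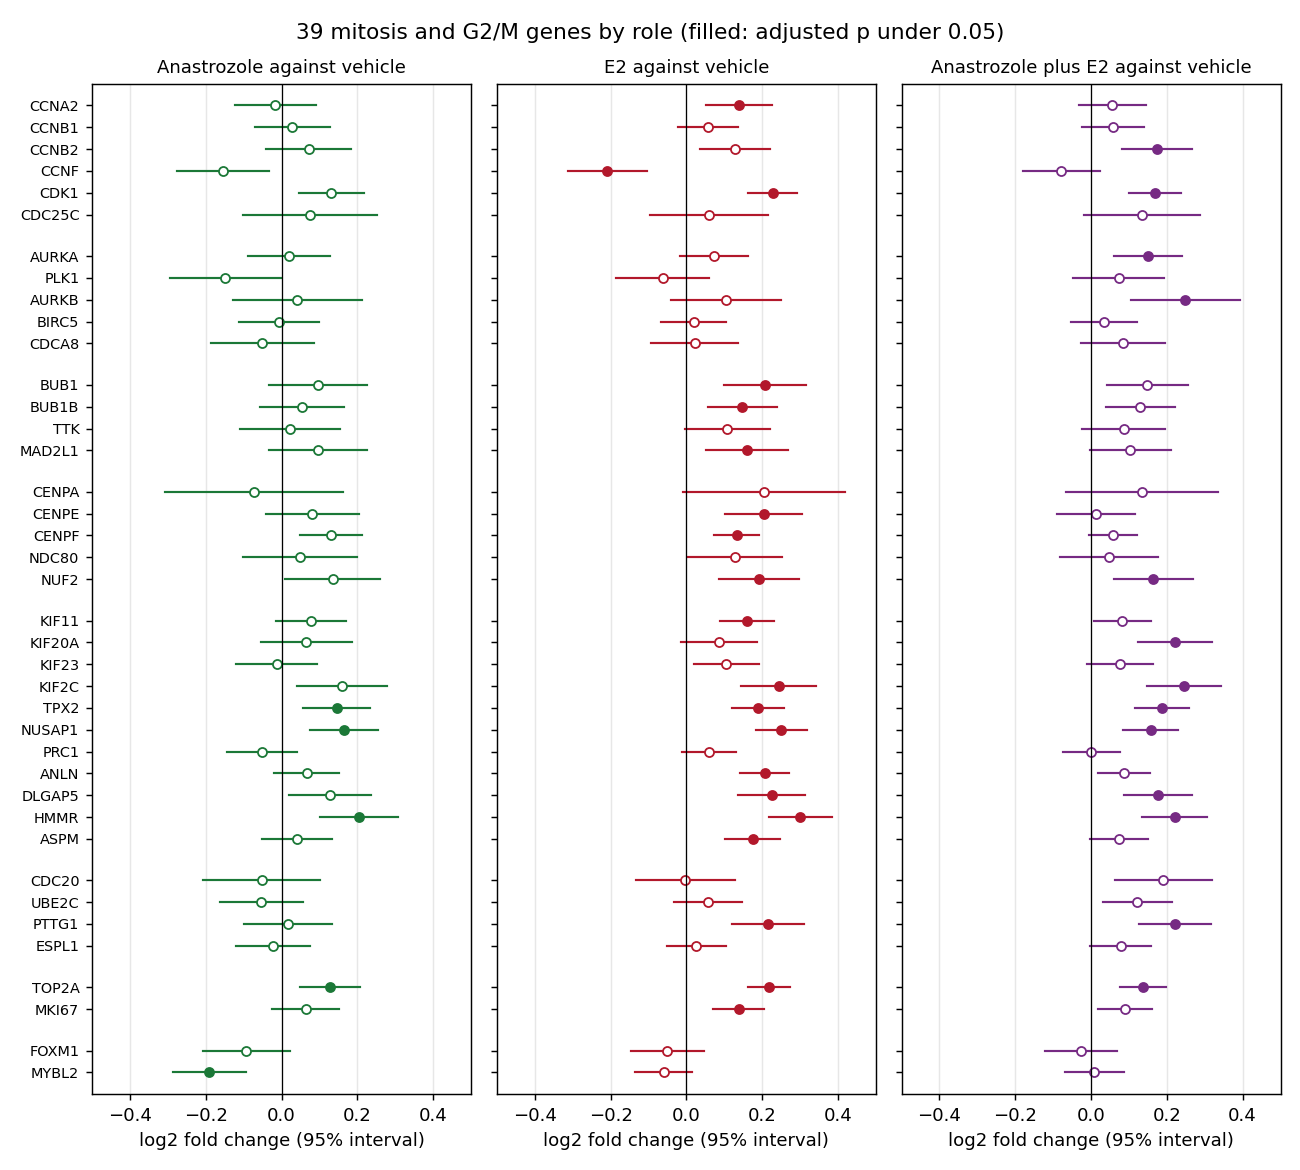
Log2 fold change against vehicle (x axis) of each of the 39 genes (y axis, in blocks by role) with anastrozole, E2 and anastrozole plus E2. Lines are 95% intervals and filled points have an adjusted p under 0.05. With E2 the points reach from -0.21 for CCNF to 0.30 for HMMR, and most spindle and kinetochore genes lie to the right of 0.

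GC content moved with these results. Across the 39 genes, Spearman's correlation of the log2 fold change with the GC content of the exons was -0.63 for anastrozole against vehicle and -0.67 for E2 against vehicle, and across 10842 genes it was -0.53 and -0.55. For anastrozole plus E2 against vehicle it was -0.045 across the 39 genes and -0.026 across all. The 19 genes that rose with E2 had a GC content from 34.8% to 51.3% (median 40.3%), and the other 20 from 39.4% to 60.6% (median 49.7%). For the 13 genes that rose with anastrozole plus E2, GC content ran from 34.9% to 55.7% with a median of 45.4%, against a median of 45.3% for the other 26.

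Once the GC trend of every library was taken out, 10 of the 39 genes rose with E2 and none fell, against 4.01% of all genes that rose, with a median log2 fold change of 0.090 and 37 of the 39 above 0. With anastrozole plus E2, 16 rose and none fell, against 3.37% of all genes that rose, with a median of 0.11 and 37 of the 39 above 0. With anastrozole, 4 rose and none fell, against 1.53%, and the median was 0.016. The order of E2 and of anastrozole plus E2 by count of risers was thus opposite with and without this step. How much of the E2 result comes from the GC trend of the libraries was not tested, and this step takes out real changes as well where they run along GC content.

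**Figure D3:**
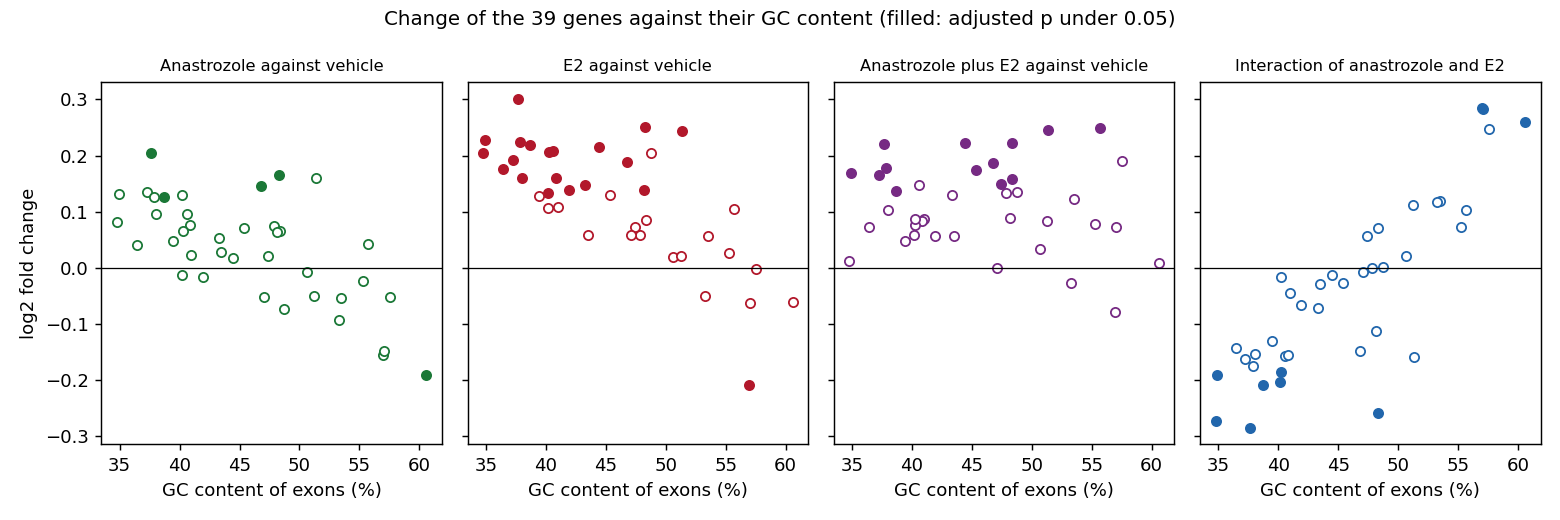
Log2 fold change of each of the 39 genes (y axis) against the GC content of its exons in percent (x axis), for the 3 treatments against vehicle and for the interaction of anastrozole and E2. Filled points have an adjusted p under 0.05. The points slope down for anastrozole and E2 (Spearman's correlation -0.63 and -0.67), lie flat for anastrozole plus E2 (-0.045) and slope up for the interaction (0.82).

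Promoters were examined because these genes are known to share regulatory elements. In RefSeq windows from 250 bases before to 50 bases after the start site (GRCh38.p14), 33 of the 39 genes were matched, and AURKA, BIRC5, TTK, TPX2, UBE2C and FOXM1 were not. A CHR, searched as TTTGAA on both strands (TTCAAA on the other), was present in 24 of the 33 (72.7%), against 18.2% of 27305 genes. A CCAAT box, searched as CCAAT on both strands (ATTGG on the other), was present in 26 (78.8%), against 39.7% of all genes, and the pair in the same window in 20 (60.6%), against 7.26%. Within the 50 bases before the start site, 14 of the 33 genes had a CHR (42.4%), against 3.22% of all genes. Genes with several windows were counted once if any window held the motif.

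Among matched genes the CHR was found in 13 of the 18 that rose with E2 (72.2%) and in 11 of the 15 others (73.3%), and the CCAAT box in 13 of 18 (72.2%) and 13 of 15 (86.7%). The pair was found in 10 of 18 (55.6%) and 10 of 15 (66.7%), and a CHR in the 50 bases before the start site in 6 of 18 (33.3%) and 8 of 15 (53.3%). These shares were not tested against each other. The 250 bases before the start site are printed for 5 genes, with CHR and CCAAT matches in capitals. Before the GC trend was removed, HMMR and TOP2A rose in all 3 treatments, and CDK1 rose with E2 and anastrozole plus E2. PLK1, a textbook CHR gene, was called in no comparison between groups. MYBL2 fell with anastrozole before the GC trend was removed, and its window holds no exact match of either motif.

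The windows lie at chr5:163460382-163460631 (HMMR, plus strand), chr17:40417897-40418146 (TOP2A, minus strand), chr10:60778228-60778477 (CDK1, plus strand, the nearer of its windows to the gene body), chr16:23678639-23678888 (PLK1, plus strand) and chr20:43666864-43667113 (MYBL2, plus strand) in GRCh38.p14, each 250 bases, 5′ to 3′ along the gene.
HMMR: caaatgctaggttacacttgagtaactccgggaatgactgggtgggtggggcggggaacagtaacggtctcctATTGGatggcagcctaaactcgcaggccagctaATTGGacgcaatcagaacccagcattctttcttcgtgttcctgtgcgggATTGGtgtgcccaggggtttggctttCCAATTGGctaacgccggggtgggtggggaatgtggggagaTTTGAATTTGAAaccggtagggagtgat
TOP2A: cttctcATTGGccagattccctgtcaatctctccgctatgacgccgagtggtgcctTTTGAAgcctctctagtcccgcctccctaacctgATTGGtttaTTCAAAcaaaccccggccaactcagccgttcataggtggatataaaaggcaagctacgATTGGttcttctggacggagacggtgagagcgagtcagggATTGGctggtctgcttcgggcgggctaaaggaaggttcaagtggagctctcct
CDK1: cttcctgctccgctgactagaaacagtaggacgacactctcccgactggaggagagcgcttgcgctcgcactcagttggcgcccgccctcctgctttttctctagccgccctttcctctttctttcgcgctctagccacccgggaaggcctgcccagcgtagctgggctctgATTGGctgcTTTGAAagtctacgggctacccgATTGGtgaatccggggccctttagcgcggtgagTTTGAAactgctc
PLK1: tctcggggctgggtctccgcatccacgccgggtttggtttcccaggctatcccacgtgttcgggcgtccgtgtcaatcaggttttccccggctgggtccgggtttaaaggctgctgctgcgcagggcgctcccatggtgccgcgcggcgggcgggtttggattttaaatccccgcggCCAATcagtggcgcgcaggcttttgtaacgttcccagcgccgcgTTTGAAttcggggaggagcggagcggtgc
MYBL2: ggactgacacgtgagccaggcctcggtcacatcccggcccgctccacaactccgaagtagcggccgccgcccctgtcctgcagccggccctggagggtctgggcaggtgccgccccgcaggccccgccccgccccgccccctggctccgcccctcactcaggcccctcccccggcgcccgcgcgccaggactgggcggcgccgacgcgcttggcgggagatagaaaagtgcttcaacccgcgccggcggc

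In HMMR, adjoining CHR matches began 28 and 22 bases before the start site, with 5 CCAAT matches farther upstream, of which the 2 nearest to the start site overlap each other on opposite strands. In PLK1 the CHR began 29 bases and the CCAAT box 73 bases before the start site. In CDK1, matches of the CHR began 69 and 13 bases before the start site and another lay 10 bases after it, outside the printed stretch. In TOP2A both CHR matches lay farther away, 194 and 151 bases before the start site, among 4 CCAAT matches.

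Among the cyclins and their kinase, 2 of 6 genes rose and 1 fell with E2 (6.06% and 5.95% of all genes). With anastrozole plus E2, 2 rose (2.71% of all genes). CDK1, the kinase that triggers mitosis, lies at chr10:62538089-62554610 in GRCh37 and measured 315, 307 and 299.8 CPM in vehicle replicates a, b and c, 349.9, 354 and 306 with anastrozole, 354, 350.1 and 375 with E2 and 351, 350.5 and 335 with anastrozole plus E2. All E2 and all anastrozole plus E2 libraries were above all vehicle libraries, and anastrozole replicate c lay within the vehicle range. The log2 fold change was 0.23 ± 0.033, adjusted p = 6.39e-10, with E2, and 0.17 ± 0.035, adjusted p = 0.000118, with anastrozole plus E2. With anastrozole it was 0.13 ± 0.044, adjusted p = 0.0637. These calls for E2 and the combination held in every alternative that was run, the removal of the GC trend included (0.12, adjusted p = 0.00236 with E2).

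CCNB1, cyclin B1, the mitotic partner of CDK1, was called in no comparison. Its levels were 137, 124 and 127 CPM in vehicle replicates a, b and c, 136, 135 and 123 with anastrozole, 134, 133 and 137 with E2 and 135, 134 and 134 with anastrozole plus E2. The 4 groups overlapped throughout, and the log2 fold change with E2 was 0.058 ± 0.040, adjusted p = 0.436, with a 95% interval of -0.021 to 0.14. CCNB2, cyclin B2, rose with anastrozole plus E2 (0.17 ± 0.047, adjusted p = 0.00859) and just missed the threshold with E2 (0.13 ± 0.047, adjusted p = 0.0521). Without anastrozole plus E2 replicate c, the rise of CCNB2 was not called (adjusted p = 0.0503).

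CCNA2, cyclin A2, which acts from S phase to early mitosis, rose with E2 (0.14 ± 0.044, adjusted p = 0.0179), a call lost without E2 replicate c, vehicle replicate a or vehicle replicate c (adjusted p from 0.0625 to 0.15) and after removal of the GC trend (adjusted p = 0.301). CCNF, cyclin F, a substrate receptor of a ubiquitin ligase that restrains CDK activity, was the only one of the 39 genes that fell with E2, from 64.3 ± 1.68 CPM in vehicle (SD, n = 3) to 55.7 ± 1.78 CPM. Its log2 fold change was -0.21 ± 0.053, adjusted p = 0.00176, and all E2 libraries were below all vehicle libraries. CCNF has a GC content of 57.0%, and the decrease was not called after the GC trend was removed (-0.13, adjusted p = 0.1). Exons of other gene models overlap 11.8% of its exon bases on the opposite strand, and with the strand setting of the counting not given, its count is uncertain to that extent. CDC25C, the phosphatase that activates CDK1, changed by 0.059 ± 0.079, adjusted p = 0.722, with E2.

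None of the 5 mitotic kinases and chromosomal passenger proteins was called with E2, where 6.06% of all genes rose and 5.95% fell. With anastrozole plus E2, 2 of them rose, against 2.71% of all genes. AURKA, the Aurora kinase of the centrosome and spindle poles, measured 89.5, 91.2 and 86.0 CPM in vehicle replicates a, b and c, 89.6, 91.9 and 89.4 with anastrozole, 88.3, 98.3 and 93.4 with E2 and 99.2, 97.6 and 99.3 with anastrozole plus E2. The libraries of anastrozole plus E2 lay above all vehicle and all anastrozole libraries, whereas those of E2 overlapped both. Its log2 fold change was 0.15 ± 0.046, adjusted p = 0.0256, with anastrozole plus E2, and 0.073 ± 0.045, adjusted p = 0.354, with E2. The call was lost without any single library of anastrozole plus E2 or without vehicle replicate c (adjusted p from 0.0598 to 0.176).

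AURKB, the Aurora kinase of the chromosomal passenger complex, rose with anastrozole plus E2 (0.25 ± 0.073, adjusted p = 0.0186), from 26.3 ± 1.77 to 31.3 ± 0.734 CPM (SD, n = 3). This call was lost without anastrozole plus E2 replicate a, vehicle replicate a or vehicle replicate c (adjusted p from 0.0654 to 0.149). BIRC5 (survivin) and CDCA8 (borealin), which bind AURKB in the same complex, had log2 fold changes of 0.033 ± 0.044 and 0.084 ± 0.056 with anastrozole plus E2 and of 0.020 ± 0.044 and 0.022 ± 0.058 with E2, and neither was called in any comparison.

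PLK1, the Polo-like kinase that acts from mitotic entry to cytokinesis, measured 40.8, 40.8 and 36.3 CPM in vehicle replicates a, b and c, 33.5, 35.4 and 37.6 with anastrozole, 40.2, 36.2 and 36.8 with E2 and 41.2, 42.7 and 40.0 with anastrozole plus E2. The lowest libraries were anastrozole replicates a and b, and the anastrozole and anastrozole plus E2 groups did not overlap. No comparison of PLK1 with vehicle was called: the log2 fold change was -0.15 ± 0.075 with anastrozole, -0.062 ± 0.062 with E2 and 0.073 ± 0.061 with anastrozole plus E2. PLK1 lies at chr16:23688977-23701688 in GRCh37 and has a GC content of 57.1%, and 12.8% of its exon bases are overlapped on the opposite strand, by ERN2 and another gene model, with the same uncertainty.

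Of the 4 spindle checkpoint genes, which delay anaphase until all kinetochores are attached, 3 rose with E2, where 6.06% of all genes rose. BUB1, a checkpoint kinase, rose by 0.21 ± 0.056 (adjusted p = 0.00334), from 48.8 ± 1.76 to 56.4 ± 0.293 CPM (SD, n = 3). BUB1B (BubR1), a subunit of the inhibitor of the anaphase-promoting complex, rose by 0.15 ± 0.046 (adjusted p = 0.0168), and MAD2L1, its partner in that inhibitor, by 0.16 ± 0.056 (adjusted p = 0.0374). TTK (Mps1), the kinase upstream of them, was not called (0.11 ± 0.057, adjusted p = 0.236). None of the 3 rises was called after the GC trend was removed (adjusted p of 0.102, 0.174 and 0.544). BUB1B was also lost without E2 replicate b, E2 replicate c or vehicle replicate c (adjusted p from 0.0756 to 0.0926), and MAD2L1 without E2 replicate a, E2 replicate b, vehicle replicate b or vehicle replicate c (adjusted p from 0.0764 to 0.141). The rise of MAD2L1 held in 2 of 9 alternatives of processing and was lost with library size alone, DESeq2's test, limma-voom, all 12 libraries in the fit and the replicate block as well. With anastrozole plus E2 none of the 4 was called in the edgeR test, and BUB1B was called once the GC trend was removed (0.13, adjusted p = 0.0491). BUB1, BUB1B and MAD2L1 had all 3 libraries of anastrozole plus E2 above all vehicle libraries.

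Of the 5 centromere and kinetochore genes, 3 rose with E2 and 1 with anastrozole plus E2, where 6.06% and 2.71% of all genes rose. CENPF, a large kinetochore and microtubule-binding protein, measured 537, 578 and 563 CPM in vehicle replicates a, b and c, 617, 620.4 and 598 with anastrozole, 600.4, 604 and 635 with E2 and 539, 600.0 and 609 with anastrozole plus E2. E2 and anastrozole libraries all lay above the vehicle libraries, while anastrozole plus E2 replicate a lay at the vehicle level. On the log2 scale the change was 0.13 ± 0.030, adjusted p = 0.000307, with E2, 0.13 ± 0.042, adjusted p = 0.0514, with anastrozole, and 0.058 ± 0.033, adjusted p = 0.42, with the combination. CENPE, the kinesin that moves chromosomes to the spindle equator, rose with E2 (0.20 ± 0.052, adjusted p = 0.00192) and had a log2 fold change of 0.012 ± 0.052 with anastrozole plus E2. NUF2, a subunit of the Ndc80 complex that holds microtubules, rose with E2 (0.19 ± 0.054, adjusted p = 0.00621) and with anastrozole plus E2 (0.16 ± 0.053, adjusted p = 0.0427). Its rise with E2 was lost without vehicle replicate a (adjusted p = 0.0529), and its rise with the combination without anastrozole plus E2 replicate b or c or vehicle replicate a or c (adjusted p from 0.0921 to 0.424). NDC80, its partner, had 0.13 ± 0.064, adjusted p = 0.198, with E2. CENPA, the histone that marks the centromere, had 0.20 ± 0.11, adjusted p = 0.248. After removal of the GC trend none of the 3 rises with E2 was called (adjusted p of 0.207 for CENPF, 0.304 for CENPE and 0.311 for NUF2).

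Of the 11 spindle and cytokinesis genes, the longest of the role lists, 8 rose with E2, 6 with anastrozole plus E2 and 3 with anastrozole, where 6.06%, 2.71% and 1.40% of all genes rose. HMMR, a microtubule-binding protein of the spindle poles, had the largest increase of the 39 genes with E2. It lies at chr5:162887209-162918947 in GRCh37 and measured 98.8, 107 and 101 CPM in vehicle replicates a, b and c, 122, 119 and 112 with anastrozole, 132, 123 and 124 with E2 and 116, 119 and 122 with anastrozole plus E2. Every treated library was above every vehicle library, and the E2 libraries were above all others. This gave a log2 fold change of 0.30 ± 0.042, adjusted p = 2.15e-10, with E2, an increase of 23.2%. It was 0.22 ± 0.044, adjusted p = 4.18e-05, with anastrozole plus E2 and 0.20 ± 0.052, adjusted p = 0.00745, with anastrozole. The rise with anastrozole was lost without anastrozole replicate a or b or vehicle replicate a or c (adjusted p from 0.0854 to 0.127). After removal of the GC trend the values were 0.21, adjusted p = 7.26e-06, with E2 and 0.22, adjusted p = 3.1e-06, with the combination.

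NUSAP1, which bundles spindle microtubules near chromosomes, measured 218, 224 and 223 CPM in vehicle replicates a, b and c, 261, 251 and 233 with anastrozole, 271, 253 and 267 with E2 and 247, 245 and 249.9 with anastrozole plus E2. The vehicle libraries were the lowest, and the E2 libraries were above all libraries of anastrozole plus E2. The log2 fold change was 0.25 ± 0.035, adjusted p = 9.4e-11, with E2, 0.16 ± 0.037, adjusted p = 0.00107, with anastrozole plus E2, and 0.16 ± 0.045, adjusted p = 0.0156, with anastrozole. NUSAP1 has a GC content of 48.3%, and removing the GC trend left its values at 0.25, 0.16 and 0.16 in the same order. Of its exon bases, 86.8% are also in exons of OIP5-AS1 or of an unnamed gene model on the same strand and 9.76% in those of OIP5 on the opposite strand in the gene models used here. Which of these models were in the annotation that the reads were counted on is not given in the sources used here, so the count of NUSAP1, and each call on it, is uncertain to that extent. The anastrozole call was lost without anastrozole replicate a or b or vehicle replicate a or c (adjusted p from 0.108 to 0.23).

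TPX2, which activates AURKA on the spindle, measured 221, 225 and 225 CPM in vehicle replicates a, b and c, 251, 249 and 244 with anastrozole, 262, 252 and 252 with E2 and 251, 249.6 and 264 with anastrozole plus E2. It was higher in every treated library than in every vehicle library, with log2 fold changes of 0.19 ± 0.035, adjusted p = 3.49e-06, for E2, 0.19 ± 0.037, adjusted p = 3.71e-05, for the combination, and 0.15 ± 0.045, adjusted p = 0.041, for anastrozole. The anastrozole call was lost when any library but anastrozole replicate c was left out (adjusted p from 0.0745 to 0.224). DLGAP5, another spindle assembly factor of the AURKA pathway, measured 88.7, 90.1 and 81.8 CPM in vehicle replicates a, b and c, 102, 90.9 and 91.2 with anastrozole, 104, 99.2 and 102 with E2 and 97.4, 101 and 96.9 with anastrozole plus E2. Its treated libraries also lay above all vehicle libraries, by a narrow margin with anastrozole. Its log2 fold change was 0.22 ± 0.045, adjusted p = 2.65e-05, with E2 and 0.18 ± 0.046, adjusted p = 0.00439, with the combination, the latter lost without anastrozole plus E2 replicate b or vehicle replicate c (adjusted p of 0.0552 and 0.132).

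KIF2C, a kinesin that depolymerizes microtubules at kinetochores, measured 60.7, 64.6 and 61.8 CPM in vehicle replicates a, b and c, 75.2, 67.9 and 65.3 with anastrozole, 72.2, 73.0 and 76.3 with E2 and 77.9, 72.4 and 71.3 with anastrozole plus E2. The 3 treatments lay above vehicle without overlap. On the log2 scale the change was 0.24 ± 0.051, adjusted p = 5.87e-05, with E2, and 0.25 ± 0.050, adjusted p = 8.67e-05, with anastrozole plus E2. With a GC content of 51.3% it was the highest in GC of the 19 risers, and it was called with anastrozole too once the GC trend was removed (0.19, adjusted p = 0.0163). KIF11 (Eg5), the motor that pushes the spindle poles apart, measured 173, 185 and 169.7 CPM in vehicle replicates a, b and c, 190.1, 184 and 183 with anastrozole, 201, 195 and 195 with E2 and 184, 189.9 and 185 with anastrozole plus E2. Only the E2 libraries stood apart from vehicle. It rose with E2 (0.16 ± 0.037, adjusted p = 0.000328), a call lost with the GC trend removed (adjusted p = 0.0717).

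ANLN, a scaffold of the contractile ring in cytokinesis, measured 297, 329 and 309 CPM in vehicle replicates a, b and c, 338, 331 and 310.3 with anastrozole, 356, 360.0 and 364 with E2 and 329.7, 333 and 333 with anastrozole plus E2. E2 libraries were above all others, and the other 3 groups lay close together. The log2 fold change with E2 was 0.21 ± 0.033, adjusted p = 2.79e-08, and removal of the GC trend left 0.13, adjusted p = 0.000272. ASPM, a spindle pole protein, measured 163, 181 and 168 CPM in vehicle replicates a, b and c, 178, 185 and 165 with anastrozole, 188, 187 and 204 with E2 and 165, 185 and 190.4 with anastrozole plus E2. The E2 libraries exceeded all vehicle libraries, those of anastrozole lay below all E2 libraries and across the vehicle range, and those of the combination spread through both ranges. It rose with E2 (0.18 ± 0.037, adjusted p = 7.05e-05), and this was not called with the GC trend removed (adjusted p = 0.174).

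KIF20A, a kinesin of the central spindle, rose with anastrozole plus E2 (0.22 ± 0.050, adjusted p = 0.000601) and had 0.086 ± 0.052, adjusted p = 0.328, with E2. KIF23 and PRC1, which build the central spindle with it, were called in no comparison before the GC trend was removed, with log2 fold changes for E2 of 0.11 ± 0.044 and 0.059 ± 0.036. PRC1-AS1 overlaps 34.3% of the exon length of PRC1 on the opposite strand, the most among the 39 genes, and an unnamed gene model on the same strand overlaps 57.6%, so the count of PRC1 is uncertain too.

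Of the 4 genes of anaphase and mitotic exit, only PTTG1 rose against vehicle, with both treatments that held E2. Of all genes, 6.06% rose with E2 and 2.71% with anastrozole plus E2. PTTG1 (securin), the inhibitor of separase, measured 72.2, 72.3 and 73.4 CPM in vehicle replicates a, b and c, 77.5, 70.1 and 72.3 with anastrozole, 85.9, 84.4 and 82.8 with E2 and 89.1, 78.3 and 86.4 with anastrozole plus E2. The libraries fell into a low pair of groups, vehicle and anastrozole, and a high pair, E2 and anastrozole plus E2, with no overlap between the pairs. This gave a log2 fold change of 0.22 ± 0.048, adjusted p = 0.000226, with E2, 0.22 ± 0.048, adjusted p = 0.000283, with anastrozole plus E2, and 0.017 ± 0.059, adjusted p = 0.968, with anastrozole. Removing the GC trend left 0.18, adjusted p = 0.00285, and 0.22, adjusted p = 6.19e-05. PTTG1 has near-identical copies in the genome, so reads shared with them can be missing from its count.

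CDC20, the activator of the anaphase-promoting complex, had -0.0026 ± 0.066, adjusted p = 1, with E2, and 0.19 ± 0.066, adjusted p = 0.0655, with anastrozole plus E2. UBE2C, the ubiquitin-conjugating enzyme of that complex, had 0.058 ± 0.046 and 0.12 ± 0.046, and ESPL1 (separase) 0.027 ± 0.040 and 0.078 ± 0.041, in the same order, with no call. CDC20 and UBE2C were called with anastrozole plus E2 once the GC trend was removed (adjusted p of 0.0361 and 0.0471).

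Both chromosome-associated genes rose with E2, where 6.06% of all genes rose. TOP2A, the topoisomerase that untangles sister chromatids, is at chr17:38544777-38574148 in GRCh37 and had the smallest adjusted p of the 39 genes. Its levels were 877, 924 and 872 CPM in vehicle replicates a, b and c, 1006, 975 and 937 with anastrozole, 1036, 1024 and 1052 with E2 and 956, 1005 and 978 with anastrozole plus E2. Vehicle libraries were the lowest and E2 libraries the highest, with no overlap of either with any other group. The log2 fold change was 0.22 ± 0.028, adjusted p = 2.43e-12, with E2, 0.14 ± 0.031, adjusted p = 0.000752, with anastrozole plus E2, and 0.13 ± 0.040, adjusted p = 0.0469, with anastrozole. After removal of the GC trend these were 0.13, adjusted p = 5.21e-06, for E2, 0.14, adjusted p = 3.86e-05, for the combination, and 0.064, adjusted p = 0.293, for anastrozole. The anastrozole call was also lost without anastrozole replicate a or b or vehicle replicate a or c (adjusted p from 0.236 to 0.398).

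MKI67, which encodes the proliferation antigen Ki-67 of the chromosome surface, measured 247, 266 and 253 CPM in vehicle replicates a, b and c, 265, 268 and 267 with anastrozole, 269.5, 285 and 287 with E2 and 247, 285 and 283 with anastrozole plus E2. E2 libraries were above all vehicle and all anastrozole libraries, and anastrozole plus E2 replicate a lay at the vehicle level, below the other two of its group. Its log2 fold change was 0.14 ± 0.034, adjusted p = 0.00112, with E2, an increase of 10.1%, and removing the GC trend left it at 0.13, adjusted p = 0.000445. With anastrozole plus E2 it was 0.089 ± 0.036, adjusted p = 0.157, and with anastrozole 0.064 ± 0.045, adjusted p = 0.563.

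Neither of the transcription factors of the program was called higher in a comparison with vehicle. FOXM1, the forkhead activator of G2/M genes, measured 76.3, 74.5 and 76.0 CPM in vehicle replicates a, b and c, 69.1, 72.0 and 71.7 with anastrozole, 71.7, 71.9 and 75.4 with E2 and 77.2, 73.4 and 71.8 with anastrozole plus E2. The anastrozole libraries lay below all vehicle libraries and the other groups overlapped vehicle. On the log2 scale the change was -0.051 ± 0.049, adjusted p = 0.629, with E2, with a 95% interval of -0.15 to 0.045, and -0.093 ± 0.059, adjusted p = 0.486, with anastrozole. ITFG2 overlaps 15.9% of the exon bases of FOXM1 on the opposite strand, so this count is uncertain in the same way. MYBL2 (B-Myb), the partner of MuvB, lies at chr20:42295659-42345135 in GRCh37 and measured 150.0, 152 and 163 CPM in vehicle replicates a, b and c, 137, 134 and 136 with anastrozole, 148, 149 and 149 with E2 and 158, 158 and 152 with anastrozole plus E2. All anastrozole libraries were below all others, E2 libraries lay just below the vehicle range, and the combination overlapped vehicle. MYBL2 fell with anastrozole (-0.19 ± 0.049, adjusted p = 0.00798), a call lost without anastrozole replicate b or vehicle replicate c (adjusted p of 0.0937 and 0.242). MYBL2 has the highest GC content of the 39 genes, 60.6%, and removing the GC trend left -0.083, adjusted p = 0.315.

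**Figure D4:**
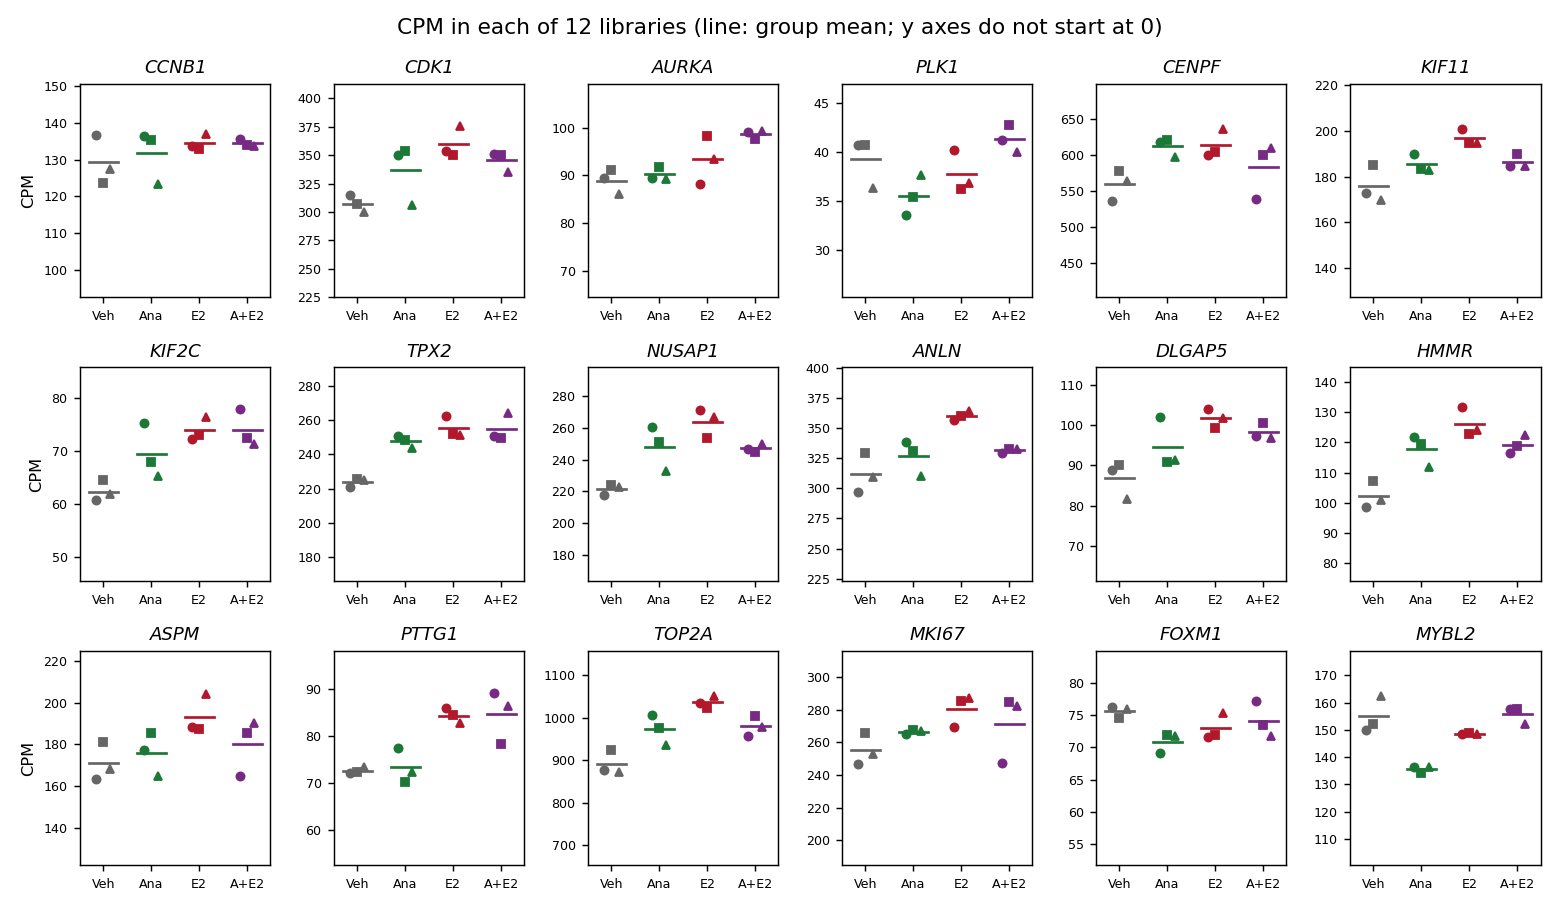
CPM (y axis, not starting at 0) of 18 of the 39 genes in each library, by group on the x axis (Veh, vehicle; Ana, anastrozole; A+E2, anastrozole plus E2). Points are libraries, with circles, squares and triangles for replicates a, b and c, and lines are group means. TOP2A, HMMR, NUSAP1 and TPX2 are lowest in vehicle, PTTG1 splits into groups with and without E2, and MYBL2 is lowest with anastrozole.

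The treatments were then compared directly. Between anastrozole plus E2 and E2 alone, 2 genes were higher in the combination, CDC20 (0.19 ± 0.065, adjusted p = 0.0436) and KIF20A (0.14 ± 0.047, adjusted p = 0.0499), and 3 were lower, CENPE (-0.19 ± 0.049, adjusted p = 0.00412), ANLN (-0.12 ± 0.031, adjusted p = 0.00516) and ASPM (-0.10 ± 0.034, adjusted p = 0.042). Over all genes, 3.23% were higher and 3.51% lower. Of the 11037 genes of a mean level of at least 3 log2 CPM, 650 were higher and 732 lower, shares near those of the 39. The median of the 39 was -0.021. The genes higher in the combination have a GC content of 57.6% and 48.4% and those lower in it of 34.8%, 40.3% and 36.4%, and the correlation with GC content in this comparison was 0.75 across the 39 genes and 0.69 across 10842. With the GC trend removed, edgeR called 0 of the 39 genes, with 3 at an unadjusted p under 0.05, where 0.937% of all genes were called in either direction. Of the cell type markers, 1 of the 7 luminal and 1 of the 7 of other cell types were higher in the combination, with none lower. Neither marker was called with the GC trend removed.

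Of the 5 mitotic genes called between the combination and E2, only ANLN kept its call when each library was left out in turn. CENPE was lost without anastrozole plus E2 replicate b or E2 replicate c (adjusted p of 0.135 and 0.0589) and ASPM without anastrozole plus E2 replicate a or E2 replicate c (0.612 and 0.481). KIF20A was lost without anastrozole plus E2 replicate b or c or E2 replicate a or b (adjusted p from 0.178 to 0.229), and CDC20 without anastrozole plus E2 replicate c or any of the 3 E2 libraries (adjusted p from 0.056 to 0.265).

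Between anastrozole plus E2 and anastrozole alone, 4 genes were higher in the combination and none lower, against 1.71% of all genes that were higher, and 35 of the 39 lay above 0. They were MYBL2 (0.20 ± 0.046, adjusted p = 0.00208), PTTG1 (0.20 ± 0.055, adjusted p = 0.0143), UBE2C (0.17 ± 0.052, adjusted p = 0.0353) and CDC20 (0.24 ± 0.074, adjusted p = 0.0395). MYBL2 kept its call whichever library was left out but not with the GC trend removed (0.10, adjusted p = 0.162). PTTG1 was lost without anastrozole plus E2 replicate a or c or anastrozole replicate b (adjusted p from 0.156 to 0.208), UBE2C without anastrozole plus E2 replicate b or c or anastrozole replicate a or b (adjusted p from 0.123 to 0.285), and CDC20 without any library of the combination or anastrozole replicate a (adjusted p from 0.0536 to 0.361). The GC step also ended the calls of UBE2C (0.14, adjusted p = 0.0851) and CDC20 (0.17, adjusted p = 0.207). After it 3 genes were called higher, against 1.06% of all genes, namely PTTG1 (0.23, adjusted p = 0.000166), CDK1 (0.12, adjusted p = 0.0174) and KIF23 (0.15, adjusted p = 0.0355), and the median log2 fold change went from 0.056 to 0.10.

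Between anastrozole and E2, both single treatments, no gene was higher with anastrozole and 2 were lower, PTTG1 (-0.19 ± 0.052, adjusted p = 0.0226) and ANLN (-0.13 ± 0.039, adjusted p = 0.0407), against 0.705% of all genes. The median log2 fold change was -0.078, and 36 of the 39 genes lay below 0. With the GC trend removed 4 genes were lower, against 1.22% of all genes. PTTG1 was lost without anastrozole replicate b or any E2 library (adjusted p from 0.119 to 0.33), and ANLN when any library but anastrozole replicate a was left out (adjusted p from 0.125 to 0.335). Both calls were also lost with filterByExpr, DESeq2's test, limma-voom and the replicate block. The correlation with GC content was 0.32 across the 39 genes and 0.11 across all.

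The interaction term asks whether the combination equals the sum of the single effects. Over all genes, 4.93% fell short of that sum and 5.93% exceeded it. Of the 11037 genes of a mean level of at least 3 log2 CPM, 993 fell short and 1203 exceeded it. Of the 39 genes, 7 fell short and 3 exceeded it. Short of the sum were HMMR (-0.28 ± 0.064, adjusted p = 0.000352), CENPE (-0.27 ± 0.077, adjusted p = 0.00762), NUSAP1 (-0.26 ± 0.055, adjusted p = 0.000162), TOP2A (-0.21 ± 0.048, adjusted p = 0.000536), CENPF (-0.20 ± 0.050, adjusted p = 0.00137), CDK1 (-0.19 ± 0.053, adjusted p = 0.00635) and ANLN (-0.19 ± 0.053, adjusted p = 0.00811). Above it were CCNF (0.29 ± 0.078, adjusted p = 0.00538), PLK1 (0.28 ± 0.097, adjusted p = 0.0377) and MYBL2 (0.26 ± 0.060, adjusted p = 0.000597). The interaction followed GC content more closely than any other comparison, with a correlation of 0.82 across the 39 genes and 0.71 across 10842. With the GC trend removed only NUSAP1 was called (-0.25, adjusted p = 1.15e-05), against 1.37% of all genes that were lower. Of the cell type markers, 2 of the 7 luminal and 1 of the 7 of other cell types exceeded the sum before that step. None of these markers was called after it.

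For NUSAP1 the combination thus fell short of the sum with and without the GC trend: its means were 221 CPM in vehicle, 248 with anastrozole, 264 with E2 and 247 with both, so the mean of the combination was not above that of anastrozole alone. Calls of the interaction were also lost for CDK1 without anastrozole replicate b or E2 replicate c (adjusted p of 0.0745 and 0.0691). CENPE was lost without vehicle replicate a or anastrozole plus E2 replicate b (0.0624 and 0.0643), and ANLN without vehicle replicate a (0.0705). PLK1 was lost without any of 8 libraries, all but vehicle replicate c, anastrozole replicate c, E2 replicate a and anastrozole plus E2 replicate c (adjusted p from 0.0567 to 0.126). In limma-voom the interaction calls of CDK1, CENPE and PLK1 were lost, and in DESeq2's test that of PLK1.

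Over the 7 comparisons, 27 of the 39 genes were called in at least 1 of the 6 comparisons between groups and 12 in none. The 12 were CCNB1, CDC25C, PLK1, BIRC5, CDCA8, TTK, CENPA, NDC80, KIF23, PRC1, ESPL1 and FOXM1. Each of the 6 comparisons alone called from 1.33% (anastrozole against E2) to 12.0% (E2 against vehicle) of all genes. The share of all genes called in at least 1 of them is not given here, so the 27 have no background beside them. The calls with E2 that held in all 9 alternatives of processing and all 6 fits without 1 library were those of CDK1, KIF2C, TPX2, NUSAP1, ANLN, DLGAP5, HMMR, PTTG1 and TOP2A. With anastrozole plus E2, the same held for CDK1, TPX2, NUSAP1 and HMMR. Apart from the GC step, the calls with E2 lost in an alternative were those of MAD2L1, of CCNA2 in DESeq2's test and limma-voom, of BUB1B in DESeq2's test, and of CENPE, ASPM and MKI67 in limma-voom. With anastrozole plus E2, DESeq2's test lost CCNB2, AURKA, AURKB, NUF2 and DLGAP5, limma-voom lost AURKA, AURKB, NUF2, KIF20A, KIF2C, DLGAP5, PTTG1 and TOP2A, and NUF2 was lost with DESeq2's size factors, filterByExpr and all 12 libraries in the fit too. Between the combination and E2, KIF20A and ASPM each held in 2 of 9 alternatives.

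Other genes of the same processes were counted in the same way. Of 85 further genes of mitosis and chromosome structure, 34 rose and 2 fell with E2 (6.06% and 5.95% of all genes). With anastrozole plus E2, 9 rose (2.71%), and with anastrozole 4 rose and 1 fell (1.40% and 2.27%). After removal of the GC trend 12 rose with E2 (4.01% of all genes) and 13 with the combination (3.37%). With anastrozole none rose and 1 fell after that step (1.53% and 1.37% of all genes). RACGAP1, which organizes the central spindle, rose with E2 (0.25 ± 0.035, adjusted p = 1.67e-10) and the combination (0.19 ± 0.037, adjusted p = 4e-05), CEP55, a factor of abscission, likewise (0.31 ± 0.044, adjusted p = 9.64e-10 and 0.16 ± 0.046, adjusted p = 0.0153), and SMC2, a condensin subunit, rose with E2 (0.19 ± 0.035, adjusted p = 2.83e-06). Of 16 subunits and regulators of the anaphase-promoting complex, none rose and 1 fell with E2, ANAPC2 (-0.23 ± 0.051, adjusted p = 0.000298), where 5.95% of all genes fell. That decrease was not called with the GC trend removed (-0.12, adjusted p = 0.126), and then 1 gene of the list rose with E2, UBE2S (0.17, adjusted p = 0.0487). UBE2S, the chain-elongating enzyme of the complex, rose with the combination (0.33 ± 0.057, adjusted p = 1.58e-06). CDC23, another subunit, missed the threshold with E2 (0.12 ± 0.045, adjusted p = 0.0582).

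Of 12 genes of the DREAM and MuvB complexes, which control the program, 1 fell with E2, where 5.95% of all genes fell. It was E2F4 (-0.16 ± 0.058, adjusted p = 0.0404, and -0.069, adjusted p = 0.576 with the GC trend removed). None was called with the combination or with anastrozole before the GC step. After that step RBL1 (p107), a gene named after its values were seen, was called lower with E2 (-0.20, adjusted p = 0.0228) and TFDP1 with the combination (-0.13, adjusted p = 0.0404), where 3.56% and 2.66% of all genes were lower. Before it TFDP1, the partner of E2F proteins, had -0.13 ± 0.045, adjusted p = 0.0654, with the combination, and DYRK1A, the kinase that starts DREAM assembly, 0.17 ± 0.056, adjusted p = 0.0697, with anastrozole. Of 40 genes of DNA replication and S phase, the stage before G2, 6 rose and 8 fell with E2 (6.06% and 5.95% of all genes), 2 fell with the combination (2.33%) and 7 with anastrozole (2.27%). RRM1, a subunit of ribonucleotide reductase, rose with E2 (0.16 ± 0.036, adjusted p = 0.000222), whereas UHRF1, which maintains DNA methylation at replication, and MCM2, a subunit of the replicative helicase, fell (-0.21 ± 0.048, adjusted p = 0.000288 and -0.16 ± 0.041, adjusted p = 0.00167). The E2 call of MCM2 was lost with the GC trend removed (-0.089, adjusted p = 0.137). MCM2 fell in all 3 treatments before that step, with -0.13 ± 0.042, adjusted p = 0.0336, in the combination, and -0.21 ± 0.051, adjusted p = 0.00269, with anastrozole.

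Of 6 genes for CDK inhibitors and related phosphatases, 3 rose with E2 and 3 with anastrozole plus E2 (6.06% and 2.71% of all genes). CDKN3, a CDK phosphatase transcribed with the mitotic genes, rose with both (0.32 ± 0.057, adjusted p = 1.16e-06 and 0.30 ± 0.055, adjusted p = 7.54e-06), as did CDKN2D, the p19 inhibitor of CDK4 and CDK6 (0.45 ± 0.11, adjusted p = 0.000838 and 0.39 ± 0.10, adjusted p = 0.00583), and CDKN1A, the p21 inhibitor (0.12 ± 0.042, adjusted p = 0.0387 and 0.17 ± 0.043, adjusted p = 0.00324). As a check of the estrogen response itself, 9 of 20 known estrogen targets rose with E2 and 11 with anastrozole plus E2, against the same 6.06% and 2.71% of all genes, none fell with either, and 3 fell with anastrozole (2.27%). GREB1, a receptor cofactor induced by estrogen, rose with E2 (0.13 ± 0.030, adjusted p = 0.000731) and the combination (0.18 ± 0.033, adjusted p = 4.26e-06) and fell with anastrozole (-0.14 ± 0.042, adjusted p = 0.0294). PGR, the progesterone receptor, had 0.063 ± 0.026, adjusted p = 0.101, with E2 and fell with anastrozole (-0.13 ± 0.039, adjusted p = 0.0262). MYC rose with the combination (0.34 ± 0.056, adjusted p = 3.68e-07) and had 0.11 ± 0.059, adjusted p = 0.276, with E2. CCND1, cyclin D1, TFF1 and PDZK1 were not called with E2, with -0.066 ± 0.038, 0.10 ± 0.28 and 0.16 ± 0.064. The median log2 fold change with E2 was 0.14 over the 20 estrogen targets and 0.13 over the 39 mitotic genes. After the GC step, 8 of the targets rose with E2, 11 with anastrozole plus E2 and 1 with anastrozole, with which 3 others fell, and 2 of the S phase genes rose and 2 fell with E2.

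Across the 12 libraries, most of the 39 genes varied together. The Pearson correlation of a gene's log2 CPM with the mean of the other 38 was above 0.5 for 26 of them and highest for BUB1B, at 0.94. CCNF ran against the others, at -0.62, and FOXM1 (-0.20), PLK1 (0.10) and MYBL2 (0.14) did not follow them. These 4 genes have a GC content from 53.3% to 60.6%. In the same range of GC content, AURKB (0.55), ESPL1 (0.52), UBE2C (0.41) and CDC20 (0.37) had higher correlations. Among 6752 other genes of at least 5 log2 CPM, those most like the mean of the 39 were VDAC1 (0.96), JAK1 (0.94), PDK1 (0.94), PGK1 (0.93) and RBBP8 (0.93). These correlations are over 12 libraries that share the groups and the GC trends, and are given without a test.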

How the data were processed

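RNA from T47D cells of 4 treatment groups (the labels give polyA RNA as the molecule and a kit used on total RNA) was sequenced in 12 libraries, 3 per group, grouped by the sample labels. Per the labels and the submitters' processing notes, the authors aligned reads to hg19 with TopHat2 2.0.14 and Bowtie2 2.2.6 and counted them per gene with HTSeq, and the deposited values are whole-number counts per gene, not normalized. The HTSeq version, its strand setting and the annotation are not given in the sources used here. Reads in no feature, 58.6% to 59.9% of each library, were left out of library sizes, and 0 columns were left unused.

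Genes with 0 counts in all libraries were dropped, which left 21132 of 25370. Each comparison was fitted on its 6 libraries (the interaction on all 12) with edgeR 4.0.16 in R 4.3.3 (TMM, quasi-likelihood test, two-sided), and p-values were adjusted by Benjamini-Hochberg over all genes tested. The call threshold was an adjusted p of 0.05. Values after ± are standard errors, taken as the size of the log2 fold change over the root of its F statistic, unless given as SD. Medians and counts describe the 39 genes and carry no test. Depths of 9914253 to 17009776 reads set a floor of 0.177 to 0.303 CPM for 3 counts, which covers counting error only.

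GC content and positions came from GENCODE v44 gene models on GRCh37, matched by symbol (21539), by older symbol (1450) or not at all (2381). The GC step used a lowess of span 0.5 on genes of at least 3 log2 CPM (10842 of 11037 had a GC value), entered as an offset. Promoter windows came from RefSeq on GRCh38.p14. No coordinates were converted between builds.

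The alternatives were DESeq2 1.42.0 size factors and test, library size alone, filterByExpr, limma 3.58.1 voom, all 12 libraries in the fit, the replicate letter as a block, the GC step with and without the block, and each library left out. The members, their roles and the other gene lists were chosen with earlier results of these data known. Values per library were given for members called between groups, at most the 12 with the smallest adjusted p, and for MKI67, CCNB1, CDK1, AURKA, PLK1, TOP2A, FOXM1 and MYBL2. From each other list the 3 genes with the smallest adjusted p against vehicle were named, and from the estrogen targets GREB1, PGR, TFF1, PDZK1, MYC and CCND1.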

Additional observations from a re-analysis of the deposited data

Results flagged for a closer look

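The response to E2 differed between cells with and without anastrozole for 10 of the 39 genes, by the interaction term of an edgeR quasi-likelihood fit over all 12 libraries, where 10.9% of all genes were called. That share includes genes with few reads. Of the 11037 genes of a mean level of at least 3 log2 CPM, 1203 had a positive and 993 a negative interaction, and of the 39 genes 3 and 7. The difference in log2 fold change, the effect of E2 beside anastrozole minus its effect beside vehicle, was -0.26 for NUSAP1, -0.28 for HMMR, -0.21 for TOP2A, -0.20 for CENPF, -0.19 for CDK1, -0.27 for CENPE and -0.19 for ANLN. It was 0.26 for MYBL2, 0.29 for CCNF and 0.28 for PLK1. The 7 genes with a negative value have a GC content from 34.8% to 48.3% and the 3 with a positive value from 57.0% to 60.6%. With the GC trend of the libraries removed, only NUSAP1 of the 39 genes was called, where 2.61% of all genes were. Its exons lie 86.8% within other gene models on the same strand, so its count is uncertain. The part of the GC trend in the other 9 was not tested further.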

How the results depend on the processing

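The counts of members called, 5, 20, 13, 5, 4, 2 and 10 in the order anastrozole, E2 and anastrozole plus E2 against vehicle, combination against E2, combination against anastrozole, anastrozole against E2, and interaction, depended on the processing as follows. With filterByExpr, 3 were called for anastrozole against vehicle, 1 for the combination against anastrozole and 0 for anastrozole against E2 (10 at an unadjusted p under 0.05). DESeq2's test called 3 for anastrozole and 8 for the combination against vehicle, 2 for the combination against E2, 1 for the combination against anastrozole and 0 for anastrozole against E2 (6 unadjusted). limma-voom called 0 for anastrozole (11 unadjusted) and 5 for the combination against vehicle, 1 for the combination against E2, 0 for the combination against anastrozole (10 unadjusted) and 0 for anastrozole against E2 (11 unadjusted). With all 12 libraries in the fit, 8 were called for anastrozole against vehicle and 2 for the combination against E2.

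Removal of the GC trend gave 10 for E2 against vehicle, 0 for the combination against E2 (3 unadjusted), 4 for anastrozole against E2 and 1 for the interaction. Together with the replicate block it gave 10, 0 (4 unadjusted) and 1 for the first, second and last of these. Values changed sign for ASPM in the combination against E2 (0.0017 with the GC trend removed and the replicate block) and for CDK1 in the interaction (0.0064 with the GC trend removed and 0.0058 with the block as well).

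The replicate block alone gave 4, 19, 18, 5, 4, 0 and 10 in the order above (10 unadjusted for anastrozole against E2). Deviations of libraries with the same letter correlated from -0.20 to 0.18, with no comparison above 0.1 for every letter. The GC trend of each library was not removed first, so these values cannot show whether libraries of the same letter were handled together. Leaving out 1 library gave 0 to 9 calls for anastrozole, 17 to 19 for E2 and 9 to 15 for the combination against vehicle, 2 to 4 for the combination against E2, 1 to 6 for the combination against anastrozole, 0 to 4 for anastrozole against E2 and 7 to 15 for the interaction. Over 59 single calls and 935 refits, 714 kept direction and call, 218 lost the call and 3 changed sign. The causes were not tested.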
